A study of Mus musculus with 16 samples.

Results

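The regions described here are ATAC-seq peaks in gene deserts of the mouse genome. A peak was a member when it was autosomal and its midpoint lay more than 500 kb from the outer bounds of every protein-coding gene of a GRCm38 RefSeq gene table. This rule uses position only and no measured height. Over the 6 distinct peak lists of the series it selected 24526 of 302829 peaks. The lists come from germ cells of the testis of mice carrying the Mvh-Venus transgene, a reporter driven from the germ-cell gene Mvh (*Ddx4*). ATAC-seq, which cuts open DNA with a transposase, was run on male *Morc1* (+/-) and *Morc1* (-/-) cells of the fetal stages E13.5 and E16.5, named by days of gestation, and of the day of birth (P0) and postnatal day 3 (P3). The heterozygous cells, which serve as controls, also carry 1 mutant *Morc1* allele, and wild-type cells are not among the groups. The labels name 16 samples, 2 per stage and genotype, but each deposited list is named for a whole group. No value below therefore has a spread between replicates, and no test between groups was possible. The P0 lists of the 2 genotypes are identical in every row, and so are the P3 lists. Each was used once, and the genotype and samples behind them are not known. Intervals are 95% intervals that cover counting error over peaks only.

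Gene deserts are long stretches without protein-coding genes. They are typically late replicating, rich in transposon remnants and packed as heterochromatin, although some hold enhancers that act on a distant developmental gene. Gonocytes, the precursors of spermatogonia, stop dividing before birth and resume after it, and in the arrested period their DNA is methylated anew. Broad gene-poor domains are known to become accessible in gonocytes before this methylation. MORC1 is a nuclear ATPase that is needed in these cells for silencing of transposons.

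A desert as used here begins 500 kb from the nearest protein-coding gene on each side. There were 249 deserts on the 19 autosomes, 201.5 Mb in all or 8.38% of the autosomal span from position 3000001 onward. Their median length was 493 kb, and 72 were at least 1 Mb long. The longest reached 3.54 Mb. No peak fell in the 3 that lie at a chromosome start, and 17 deserts held no peak in any list. Peaks just inside the limit lay 500003 to 500131 bp from a gene, and those just outside 499557 to 499997 bp.

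Deserts are empty of protein-coding genes but not of annotated genes of other types. The table places 1202 such genes in them. Among these are 457 pseudogenes, 308 gene segments of immune receptors, 276 genes of long noncoding RNAs (lncRNAs) and 21 of microRNAs. RefSeq start sequences (GRCm38.p6, from 250 bases before to 50 after a start) were given for 231 lncRNA starts in deserts, of 206 genes. A peak of all 6 lists overlapped 7 of these starts, which belong to *Gm32810*, *Gm41966*, *Gm35925*, *Gm46645*, *Gm31415* and *Gm38584*. Another 27 starts met a peak at E16.5 or later and none at E13.5, while 188 met none. Of the others, 7 met a peak at E13.5 and in some but not all later lists or genotypes, and 2 at E13.5 only. These classes were not counted for lncRNA starts elsewhere, whose shares per list are given further below. The following 5 show starts open throughout (the first 3) and starts open in all lists but those of E13.5 (the last 2). They were chosen after their values were seen, and chromosome, start, end and strand follow each name. Capitals mark matches to 8 motifs searched on both strands. They were the CTCF core, the NF-Y box CCAAT, the cyclic AMP response element TGACGTCA and the GC box GGGGCGGGG. They also included the octamer ATTTGCAT, the E-box with letters CACGTG, the motif for GATA-type zinc finger proteins with letters AGATAA, and finally the motif for AP-1 proteins with letters TGAGTCA. Adjoining or overlapping matches run together.
*Gm46645*, chr19:15340298-15340597, minus strand: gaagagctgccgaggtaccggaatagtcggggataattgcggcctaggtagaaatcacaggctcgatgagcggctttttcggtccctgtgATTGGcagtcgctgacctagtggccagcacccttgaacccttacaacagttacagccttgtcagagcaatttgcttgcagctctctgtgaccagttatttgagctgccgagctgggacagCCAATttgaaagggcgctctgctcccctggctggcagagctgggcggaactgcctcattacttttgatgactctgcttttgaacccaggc
*Gm31415*, chr3:49062189-49062488, plus strand: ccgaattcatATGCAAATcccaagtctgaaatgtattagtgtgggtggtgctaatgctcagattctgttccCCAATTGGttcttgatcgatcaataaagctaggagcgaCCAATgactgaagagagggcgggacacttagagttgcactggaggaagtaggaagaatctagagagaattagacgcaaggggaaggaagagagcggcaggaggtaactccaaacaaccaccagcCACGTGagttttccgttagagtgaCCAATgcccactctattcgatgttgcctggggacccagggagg
*Gm32810*, chr1:112416869-112417168, minus strand: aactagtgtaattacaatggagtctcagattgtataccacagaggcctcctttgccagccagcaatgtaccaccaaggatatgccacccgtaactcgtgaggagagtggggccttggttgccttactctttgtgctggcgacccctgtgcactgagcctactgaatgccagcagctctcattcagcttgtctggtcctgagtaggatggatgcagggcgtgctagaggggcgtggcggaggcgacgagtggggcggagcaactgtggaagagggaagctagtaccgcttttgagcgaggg
*Gm46244*, chr1:113145271-113145570, plus strand: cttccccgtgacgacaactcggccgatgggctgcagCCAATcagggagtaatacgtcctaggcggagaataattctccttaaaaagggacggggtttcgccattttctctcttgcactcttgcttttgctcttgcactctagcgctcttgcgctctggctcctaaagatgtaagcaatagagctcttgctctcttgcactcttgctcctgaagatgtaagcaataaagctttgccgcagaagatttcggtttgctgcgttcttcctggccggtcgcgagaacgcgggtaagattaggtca
*Gm38450*, chr4:23260534-23260833, plus strand: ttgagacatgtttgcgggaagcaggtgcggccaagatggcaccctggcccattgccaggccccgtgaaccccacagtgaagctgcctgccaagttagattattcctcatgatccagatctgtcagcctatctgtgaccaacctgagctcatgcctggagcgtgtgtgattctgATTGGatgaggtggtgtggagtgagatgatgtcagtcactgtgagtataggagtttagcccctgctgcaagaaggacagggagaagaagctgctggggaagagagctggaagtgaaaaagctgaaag

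The *Gm31415* start holds 4 CCAAT matches beside 1 octamer and 1 E-box. *Gm46645* holds 2 CCAAT matches, and *Gm46244* and *Gm38450* hold 1 each. *Gm32810* has no match to any of the 8. CCAAT occurred in 51.5% of the 231 desert starts and in 35.5% of the lncRNA starts elsewhere on the autosomes. The octamer occurred in 3.03% and 1.85%, the E-box in 3.90% and 5.86%, and the GATA motif in 18.6% and 13.9%. For the cyclic AMP response element the shares were 0.866% and 0.994%, and for the AP-1 motif 4.76% and 6.29%. No desert start held the GC box or the CTCF core, which 4.37% and 0.686% of the lncRNA starts elsewhere hold. The printed *Gm46244* sequence has 18 CpG dinucleotides and a G+C content of 51.0%, and *Gm32810* has 11 and 56.0%. Median G+C content was 52.0% over the 7 starts open in all lists, 47.3% over the 27 that met a peak from E16.5 onward only and 41.3% over the 188 without a peak. It was 48.7% over 11071 lncRNA starts elsewhere. A motif match is a description of these letters and does not mark a bound site.

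Desert peaks were scarce at E13.5 and numerous from E16.5 onward. The E13.5 lists held 851 desert peaks in heterozygous and 814 in knockout cells. The E16.5 lists held 5747 and 5544, the P0 list 8043 and the P3 list 3527. Deserts took 2.16% of the autosomal peaks in E13.5 heterozygous cells (interval 2.02 to 2.31) and 2.11% in E13.5 knockout cells (1.97 to 2.26). They took 11.1% in E16.5 heterozygous (10.85 to 11.4) and 10.1% in E16.5 knockout cells (9.87 to 10.4). The P0 share was 12.5% (12.3 to 12.8) and the P3 share 8.10% (7.84 to 8.36). The E13.5 lists are low, all later lists are high, and no interval of one stage meets that of another. These intervals leave out the spread between samples, which is unknown, so they do not measure how far stages differ beyond it. From E13.5 to E16.5 the share was 5.14 times higher in heterozygous cells (interval 4.79 to 5.52) and 4.79 times higher in knockout cells (4.46 to 5.15). From E16.5 heterozygous cells to P0 it was 1.13 times higher (1.09 to 1.16), and from P0 to P3 it was 0.646 times as high (0.622 to 0.671). The P3 share was still 3.74 times that of E13.5 heterozygous cells (3.48 to 4.03).

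**Figure D1:**
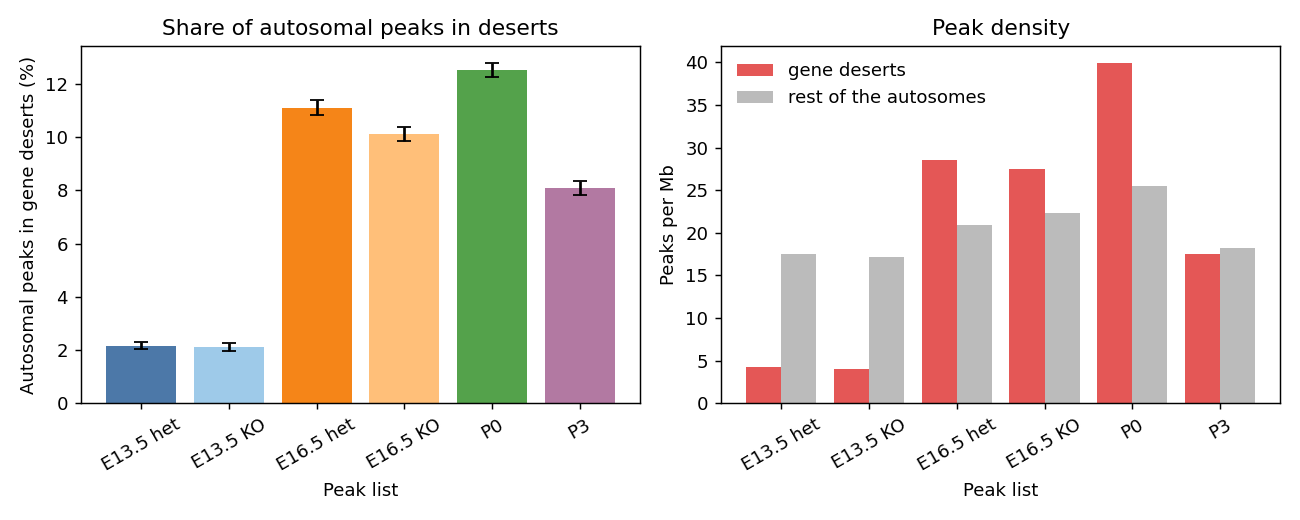
Left, the share of autosomal peaks in gene deserts (%, bars) with 95% Wilson intervals in the 6 lists. Right, peaks per Mb in deserts and in the rest of the autosomes. The share stands near 2% in both E13.5 lists and between 8.10% and 12.5% in the others, and the desert density exceeds that of the rest at E16.5 and P0 only.

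Counts moved in deserts far more than elsewhere. Between E13.5 and E16.5 in heterozygous cells the desert count was 6.75 times as high, while autosomal peaks outside deserts were 1.19 times as many. In knockout cells the factors were 6.81 and 1.304. Of the peaks by which the E16.5 heterozygous list exceeded the E13.5 one on autosomes, 4896 lay in deserts and 7462 elsewhere, although deserts make up 8.38% of the span. From P0 to P3 the desert count became 0.439 times as large, and the count elsewhere 0.713 times. Deserts held 4.22 and 4.04 peaks per Mb in the E13.5 lists (heterozygous, knockout), 28.5 and 27.5 in the E16.5 lists, 39.9 in the P0 and 17.5 in the P3 list. The rest of the autosomes held 17.5, 17.2, 20.9, 22.4, 25.5 and 18.2 peaks per Mb in the same order. Deserts therefore had 0.242 times the density of the rest in E13.5 heterozygous cells, 1.37 times at E16.5, 1.57 times at P0 and 0.963 times at P3. Read depth behind each list is unknown, and a longer list or a lower calling threshold can add peaks unevenly. The part of depth and threshold in these differences was not tested.

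Over the desert classes, pooled across deserts, density rose with distance from genes in the E16.5, P0 and P3 lists but not in the E13.5 lists. The farther classes lie in longer deserts only, and longer deserts were denser in the E16.5, P0 and P3 lists. The part of desert length in this rise was not tested. At E13.5 the density in heterozygous cells was highest within 10 kb of a gene (28.2 peaks per Mb) and 7.04 between 100 and 500 kb. In deserts it was 4.63 at 500 to 750 kb, 4.13 at 750 kb to 1 Mb, 3.52 at 1 to 1.5 Mb and 4.39 beyond 1.5 Mb. At E16.5 heterozygous cells had 30.8 peaks per Mb within 10 kb and a low of 17.4 between 100 and 500 kb. Each farther class had more. The densities were 23.5 at 500 to 750 kb, 29.96 at 750 kb to 1 Mb, 33.3 at 1 to 1.5 Mb and 37.2 beyond 1.5 Mb. The P0 list rose along the same classes from 33.5 to 49.2 and the P3 list from 15.5 to 20.4. Inside genes, by contrast, E13.5 heterozygous cells had 21.2 peaks per Mb and E16.5 heterozygous cells 20.97. The E16.5 to E13.5 ratio in heterozygous cells thus went from 0.990 inside genes through 2.48 at 100 to 500 kb to 8.47 beyond 1.5 Mb, with its highest value, 9.45, at 1 to 1.5 Mb. The P3 to P0 ratio went from 0.817 inside genes to 0.415 beyond 1.5 Mb, falling at every step.

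**Figure D2:**
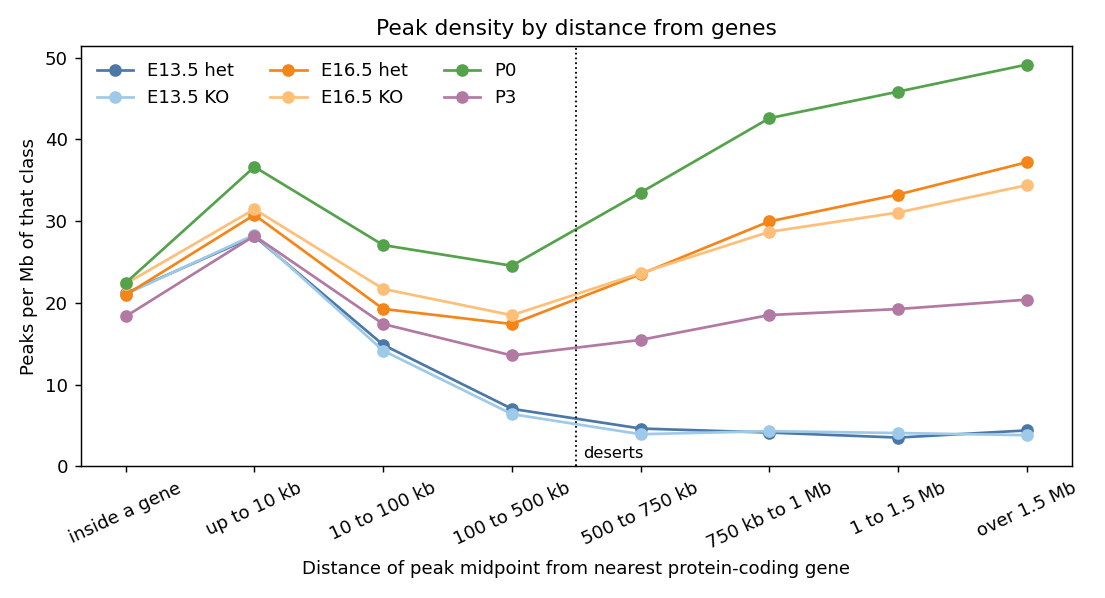
Peaks per Mb of genome in 8 classes of distance between a peak's midpoint and the nearest protein-coding gene, one line per list; the dotted line marks the desert limit. Both E13.5 lists stay under 5 peaks per Mb throughout the deserts, whereas the other 4 lists climb with distance there.

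Most desert sites open at E16.5 were not among the E13.5 peaks. Of E16.5 heterozygous desert peaks, 400 of 5747 (6.96%, interval 6.33 to 7.65) overlapped the E13.5 heterozygous list, where the share over all autosomal peaks was 43.0%. In knockout cells 405 of 5544 did (7.31%, 6.65 to 8.02), against 42.5% over all autosomal peaks. The 851 and 814 desert peaks of the E13.5 lists (heterozygous, knockout) limit both desert shares. In the forward direction, 401 of 851 E13.5 heterozygous desert peaks (47.1%) were found at E16.5, beside 56.5% of all autosomal peaks, and 405 of 814 (49.8%) in knockout cells, beside 60.4%. Like autosomal peaks in general, desert peaks of E16.5 were mostly found again at P0. This held for 4623 of 5747 heterozygous peaks (80.4%, 79.4 to 81.5, against 77.8% over all autosomal peaks) and for 4531 of 5544 knockout peaks (81.7%, 80.7 to 82.7, against 76.8%). The P0 list held 4623 of 8043 desert peaks (57.5%) in common with the E16.5 heterozygous list, beside 62.7% of all autosomal peaks.

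At P3 the desert list was mainly a subset of the P0 one, as was the autosomal list as a whole. Of P0 desert peaks, 3157 of 8043 (39.3%, 38.2 to 40.3) were found at P3, against 56.7% over all autosomal peaks. Of P3 desert peaks, 3158 of 3527 (89.5%, 88.5 to 90.5) were in the P0 list, against 83.5%. Of P3 desert peaks, 388 of 3527 (interval 10.01% to 12.1%) overlapped the E13.5 heterozygous list, where the share over all autosomal peaks was 51.0%. The 851 desert peaks of that list limit this share. In the other direction, 388 of these 851 (45.6%, 42.3 to 48.95) were found at P3, against 56.5% over all autosomal peaks.

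When overlapping peaks of all lists were joined, deserts held 10386 sites and the rest of the autosomes 92513. The 3 most frequent patterns in deserts were E16.5 with P0 (2457 sites, 23.7%), E16.5 with P0 and P3 (2343, 22.6%) and P0 alone (2263, 21.8%). Elsewhere these patterns made up 9.82%, 10.5% and 11.4% of sites. Sites found at all 4 stages were 4.28% in deserts and 21.9% elsewhere, and sites of E13.5 alone were 4.50% and 16.9%. In all, 88.5% of desert sites and 50.6% of sites elsewhere were absent from both E13.5 lists. This contrast is limited by the few desert peaks of the E13.5 lists.

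**Figure D3:**
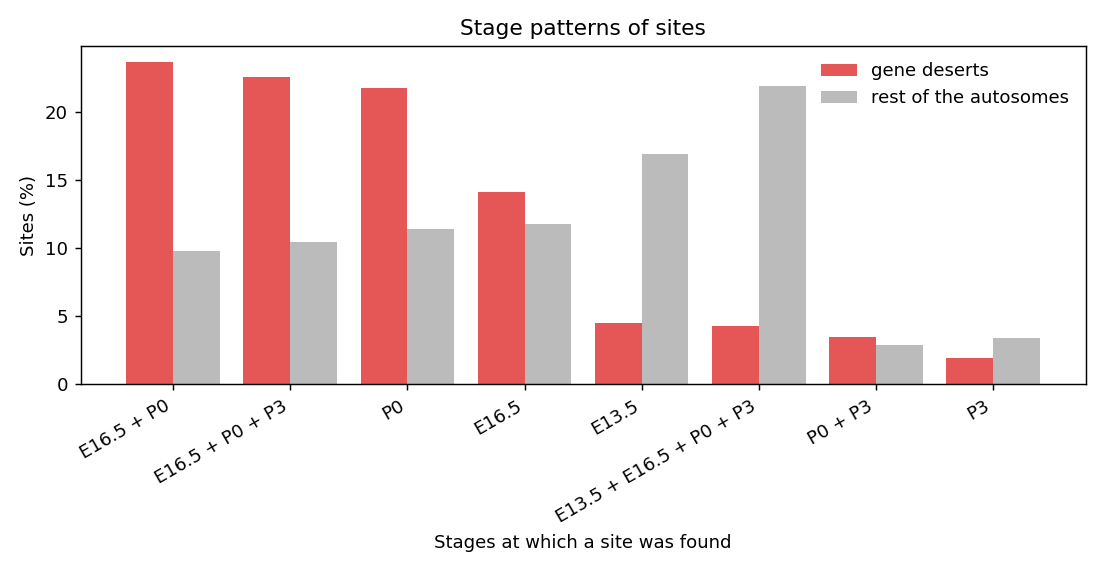
Share of sites (%, bars) found at each combination of stages, in deserts and in the rest of the autosomes, for the 8 commonest patterns in deserts; a site counts for E13.5 or E16.5 when either genotype's list held it. The bars for E16.5 + P0, E16.5 + P0 + P3 and P0 are taller in deserts, and those for E13.5 and for all 4 stages are taller elsewhere.

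Only 187 desert sites (1.80%) were met by all 6 lists, against 18.1% of sites elsewhere. Here too the few desert peaks of the E13.5 lists limit the desert share. They lay in 91 deserts, up to 10 in one desert, and the lists placed their midpoints within a median of 124 bp of each other. Of the 10 farthest from genes, 3 lay between *Olfm4* and *Pcdh17* and 3 between *Pcdh20* and *Pcdh9* on chromosome 14, and 2 between *Cntnap5b* and *Cdh20* on chromosome 1. The farthest, between *Celf4* and *Pik3c3* on chromosome 18, was 2188 kb from a gene, and it was also the farthest desert peak in each E13.5 list. The next lay at 82290612 to 82291170 on chromosome 14, 2153 kb from a gene, with midpoints that differed by 58 bp between lists. Tightly placed sites were also found at 90433163 to 90433695 on chromosome 14 (1962 kb from a gene, midpoints within 32 bp) and at 102825025 to 102825562 on chromosome 1 (1943 kb, within 37 bp). The remaining one of the 10 lay between *Lrrc4c* and *Iftap* on chromosome 2, at 99632623 to 99633193. In the E16.5, P0 and P3 lists the farthest peak lay between *Pcdh20* and *Pcdh9*, 2.24 to 2.27 Mb from a gene.

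The same deserts were then followed across lists. At E13.5, 181 deserts (heterozygous) and 172 (knockout) held a peak, with a median of 2 peaks per desert. At E16.5 the numbers were 203 and 204 with a median of 7, at P0 226 with a median of 12 and at P3 216 with a median of 5. From E13.5 to E16.5 in heterozygous cells 172 deserts had more peaks, 29 had fewer, 14 had the same number and 34 were empty in both. In knockout cells 180 had more and 19 fewer. Every one of the 72 deserts of at least 1 Mb had more peaks at P0 than in E16.5 heterozygous cells, and 70 of the 72 had fewer at P3 than at P0.

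The 8 deserts with the most peaks summed over the lists were each low at E13.5, highest at P0 and intermediate at P3. Most desert peaks come from the E16.5 and P0 lists, so ranking by this sum favours deserts high there. It also favours long deserts. The desert between *Pcdh20* and *Pcdh9*, protocadherins that act in cell adhesion, spans 88971397 to 92513699 on chromosome 14. It held 27 peaks in E13.5 heterozygous, 29 in E13.5 knockout, 189 in E16.5 heterozygous, 172 in E16.5 knockout, 223 in P0 and 93 in P3 cells. Between *Olfm4*, which encodes a secreted glycoprotein, and the protocadherin gene *Pcdh17* (80523142 to 83943562, chromosome 14) the counts were 12, 13, 170, 152, 201 and 80 in that order. The desert between the zinc transporter gene *Slc39a10* and *Tmeff2*, a transmembrane protein gene (47425777 to 50400682, chromosome 1), held 13, 8, 141, 127, 183 and 89 peaks. That between *Cntnap5b* and the cadherin gene *Cdh20* (100990600 to 104268339, chromosome 1) held 11, 7, 138, 129, 189 and 78.

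On chromosome 8, between the teneurin gene *Tenm3* and *Aga*, which encodes a lysosomal enzyme, the counts in the same order were 10, 14, 119, 103, 188 and 77. The desert between *Pcdh7* and *G6pd2* on chromosome 5 held 7, 14, 133, 119, 157 and 62. That between *Stim2*, which encodes a calcium sensor, and *Pcdh7* held 9, 5, 117, 111, 142 and 57, so that *Pcdh7* is flanked by such deserts on both sides. Between *Igfbp7* and the adhesion receptor gene *Adgrl3*, also on chromosome 5, there were 7, 3, 113, 109, 159 and 62 peaks. The desert from *Stim2* to *Pcdh7* had the same sum over the lists, 441 peaks, as that between *Slitrk5* and *Gpc5* on chromosome 14 (103 heterozygous and 100 knockout peaks at E16.5), so the eighth place is shared. In each of the 8 and in the tied desert the E16.5 knockout count was below the E16.5 heterozygous count.

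Some deserts did not gain peaks by E16.5. The 3 taken as having the largest drop in heterozygous cells were those between *Tenm2* and *Mat2b* on chromosome 11, between the receptor genes *Adgrl2* and *Adgrl4* on chromosome 3 and between *Ttll7* and *Adgrl2* on chromosome 3. The last was tied with the desert between *Bcl11a* and *Fancl* (14 heterozygous peaks at E13.5 and 8 at E16.5). *Tenm2* to *Mat2b* held 18 and 12 peaks in the E13.5 lists (heterozygous, knockout), 4 and 10 in the E16.5 lists, 31 in the P0 and 8 in the P3 list. *Adgrl2* to *Adgrl4* held 11 and 16, then 3 and 3, then 17 and 17. *Ttll7* to *Adgrl2* held 9 and 7, 3 and 2, 11 and 10, so both sides of *Adgrl2*, which encodes a latrophilin, had fewer peaks at E16.5 than before and after. Among the 72 long deserts, 7 had under 10 peaks per Mb in E16.5 heterozygous cells and 44 had at least 30. These 7, chosen after their values were seen, border *Khdrbs3*, *Tenm2*, *Celf4*, *Adgrl2*, *Lcorl*, *Bcl11a* and *Nmbr*. Over their 13.0 Mb the lists held 67, 69, 41, 69, 186 and 94 peaks in the order above. Their density was 5.14 peaks per Mb at E13.5 in heterozygous cells, 3.15 at E16.5 and 14.3 at P0. The low E16.5 heterozygous value is set by the choice of these deserts.

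**Figure D4:**
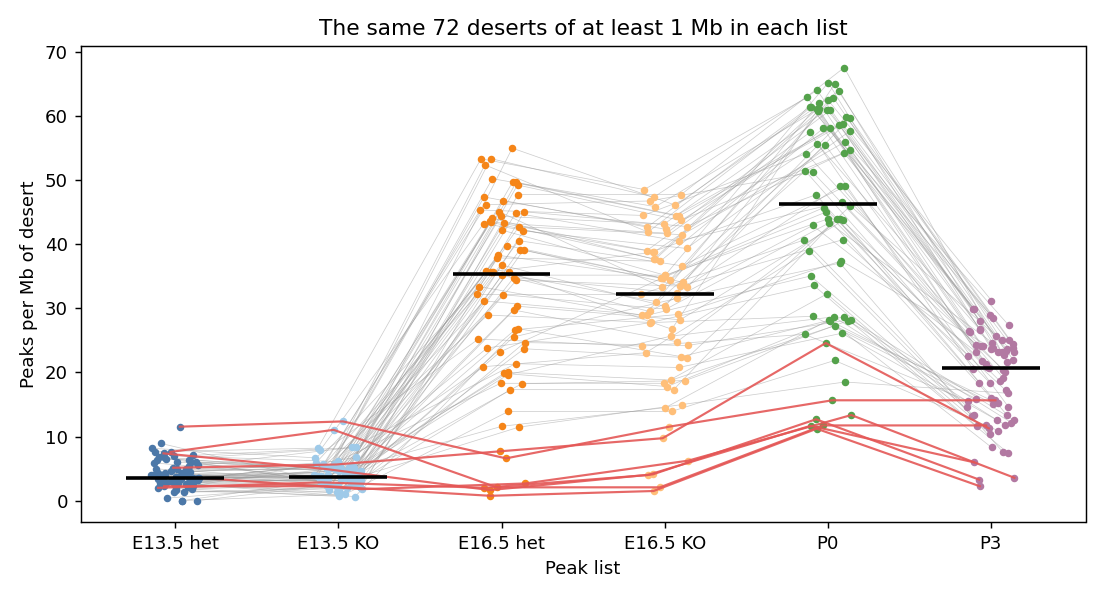
Peaks per Mb in each of the 72 deserts of at least 1 Mb (points, joined by a line per desert) in the 6 lists; black bars are medians and red lines mark the 7 deserts under 10 peaks per Mb in E16.5 heterozygous cells. Medians are 3.57 and 3.65 in the E13.5 lists, 35.4 and 32.3 in the E16.5 lists, 46.3 for P0 and 20.6 for P3.

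A desert's density at E13.5 gave little information on its later density. Across the 72 long deserts, Pearson's r between densities was 0.661 between the 2 E13.5 lists and -0.0992 between E13.5 and E16.5 heterozygous cells (Spearman -0.014). It was 0.968 between the E16.5 genotypes, 0.916 between E16.5 heterozygous cells and P0 and 0.867 between P0 and P3. These values describe deserts that share chromosomes and base composition within each list, and few peaks per desert limit them at E13.5. Longer deserts were denser at E16.5. Those under 0.25 Mb had 14.2 peaks per Mb in heterozygous cells and those of 2 Mb or more 35.04, compared with 4.94 and 4.26 at E13.5. Neighbouring peaks within a desert stood a median of 107 kb apart at E13.5 (heterozygous), 19.5 kb at E16.5, 15.95 kb at P0 and 34.2 kb at P3. Of these gaps, 1.15% to 4.45% were within 5 kb in the E16.5 heterozygous, P0 and P3 lists.

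Loss of *Morc1* was examined at E13.5 and E16.5, because the P0 and P3 lists of the 2 genotypes were identical in every row (67258 and 44760 peaks). At E13.5, the desert shares of 2.16% and 2.11% gave a knockout to heterozygous ratio of 0.976 with an interval that included 1 (0.887 to 1.07). At this stage the genotype lists matched less well in deserts than over the rest of the autosomes. Of heterozygous desert peaks, 388 of 851 (45.6%, 42.3 to 48.95) were missing from the knockout list, while the background over all autosomal peaks was 21.4%. Of knockout desert peaks, 351 of 814 (43.1%, 39.8 to 46.6) were missing from the heterozygous list, with a background of 19.8%. With a limit of 250 kb, which adds peaks nearer to genes, these shares were 39.7% and 37.4%, also above the background. Per heterozygous-only peak there were 0.905 knockout-only peaks in deserts (0.783 to 1.05) and 0.907 elsewhere (0.879 to 0.936).

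At E16.5 deserts and the rest of the autosomes differed in direction. The knockout list had 3283 more peaks than the heterozygous list outside deserts and 203 fewer inside them. The ratio of desert shares was 0.910 (0.879 to 0.943), and the ratio of the desert counts themselves was 0.965 with an interval that included 1 (0.930 to 1.001). Heterozygous-only peaks made up 1468 of 5747 desert peaks (25.5%, 24.4 to 26.7) beside a background of 18.8%, and knockout-only peaks 1265 of 5544 (22.8%, 21.7 to 23.9) beside 23.4%. Per heterozygous-only peak there were 0.862 knockout-only peaks in deserts (0.799 to 0.929) and 1.40 elsewhere (1.36 to 1.44). Both kinds of private desert peak recurred at other stages to a like degree, 61.1% of the knockout-only (58.4 to 63.8) and 59.0% of the heterozygous-only peaks (56.5 to 61.5), compared with 91.2% of shared ones. Outside deserts the shares were near these, at 63.7% for peaks private to knockout cells, 56.8% for those private to heterozygous cells and 91.6% for shared ones. Whether these genotype differences exceed those between replicate samples could not be measured. *Morc1* genotype, depth and calling threshold cannot be told apart in lists of unequal length.

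**Figure D5:**
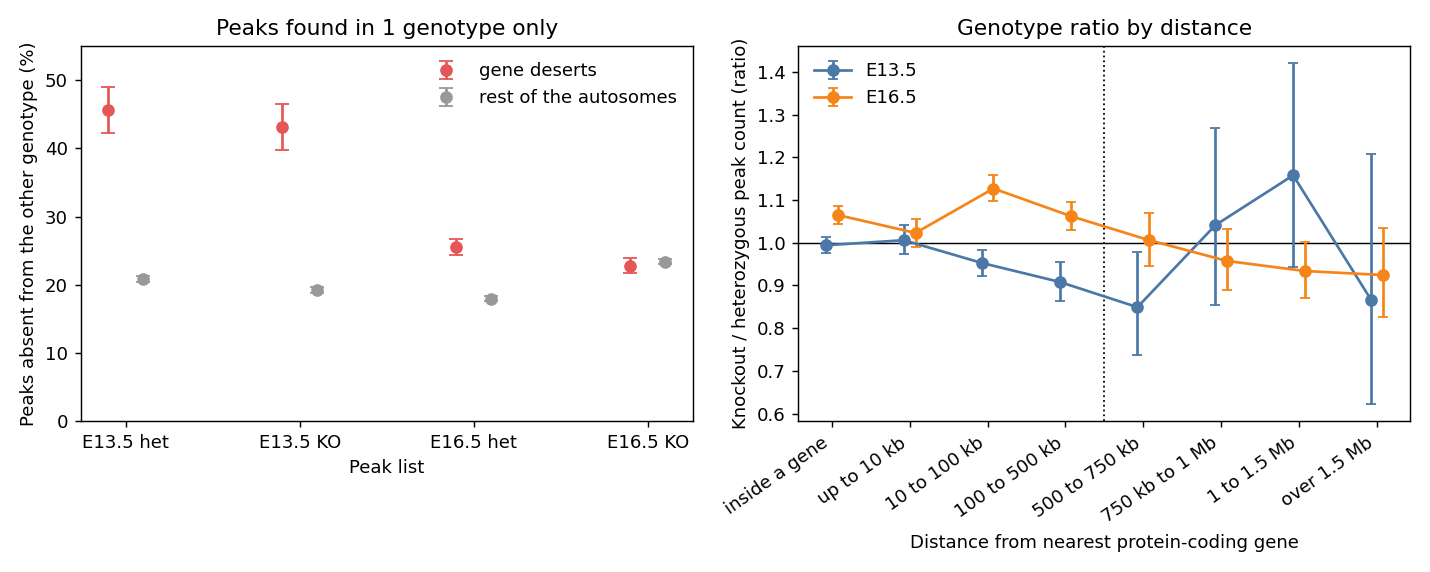
Left, the share of peaks absent from the other genotype's list (%, points with 95% Wilson intervals) in deserts and elsewhere. Right, the ratio of knockout to heterozygous peak counts by distance from genes, with 95% counting intervals. At E16.5 it lies above 1 up to 750 kb and below 1 beyond, reaching 0.924 past 1.5 Mb. The E16.5 interval includes 1 in every class beyond 500 kb and in the class up to 10 kb from a gene.

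The E16.5 ratio of counts was 1.07 inside genes, 1.13 at 10 to 100 kb, 1.01 at 500 to 750 kb (0.947 to 1.07) and 0.934 at 1 to 1.5 Mb (0.871 to 1.002). At E13.5 it went from 0.849 (0.736 to 0.979) at 500 to 750 kb to 1.16 (0.944 to 1.42) at 1 to 1.5 Mb, with no order by distance within deserts. By desert length, 48 of the 72 deserts of at least 1 Mb had fewer peaks in E16.5 knockout cells and 17 had more. Of the 177 shorter ones, 42 had fewer and 69 more. When the 72 long deserts were ranked by density in the P0 list, which neither E16.5 list enters, the 18 sparsest had 473 knockout and 438 heterozygous peaks at E16.5 (ratio 1.08). The next 2 groups of 18 gave 1.001 and 0.924, and the 18 densest gave 1349 and 1525 (0.885), with fewer knockout peaks in 17 of them and more in 0. The P0 density followed both E16.5 lists closely (r of 0.916 and 0.881 for heterozygous and knockout cells), and its genotype is not known. The same ratio at E13.5 was 0.994, 0.961, 1.10 and 0.959 over the 4 groups. By chromosome, the knockout share of desert peaks at E16.5 was below the heterozygous one on 16 of 19 autosomes and above it on chromosomes 7 (1.23), 11 (1.13) and 18 (1.01). A share also depends on the peaks outside deserts, of which the knockout list had more. The desert counts themselves were higher in knockout cells on chromosomes 4, 6, 7, 10, 11, 13, 15 and 18 and lower on the other autosomes.

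Single deserts with the widest genotype differences were few peaks apart at E13.5. The desert between *Trim52* and *Slitrk1* on chromosome 14 held 4 heterozygous and 12 knockout peaks, that beside *Pcdh7* and *G6pd2* held 7 and 14, and that between *Nudt12* and the ephrin gene *Efna5* held 8 and 14. In the other direction stood the desert between *Pou3f2* and *Mms22l* with 9 and 3, that between *Manea* and the ephrin receptor gene *Epha7* with 10 and 4, and *Tenm2* to *Mat2b* with 18 and 12. At E16.5 the largest excess in knockout cells was between *Kcnv1* and *Csmd3* on chromosome 15, with 34 heterozygous and 51 knockout peaks. It was followed by *Epha7* to *Map3k7* (51 and 63) and *Gm15501* to *Tenm4* (39 and 51). The largest deficits were in *Olfm4* to *Pcdh17* (170 and 152), *Pcdh20* to *Pcdh9* (189 and 172) and *Fstl5* to *Rapgef2* (61 and 45), the last tied with *Tenm3* to *Aga* (119 and 103).

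Genes of types other than protein-coding, immune receptor segments included, cover 9.86% of desert bases, and lncRNA genes among them 6.74%. The share of desert peaks inside genes of these other types lay on both sides of 9.86%. Of desert peaks, 12.5% (10.4 to 14.8) lay inside such a gene at E13.5 in heterozygous cells, 8.23% (7.55 to 8.97) at E16.5, 9.03% (8.42 to 9.67) at P0 and 10.3% (9.33 to 11.3) at P3. An end of such a gene lay within 1000 bp of 5.41%, 3.69%, 3.92% and 5.27% of them. Among intergenic peaks outside deserts these gene-end shares were 12.2%, 10.9%, 11.3% and 12.4%. Away from any annotated gene and its ends were 85.7% of desert peaks in E13.5 and 90.2% in E16.5 heterozygous cells. Starts of desert lncRNA genes overlapped a peak in 5.63% of cases in both E13.5 lists, in 12.1% and 11.7% in the E16.5 lists, in 15.2% for P0 and in 11.7% for P3. For lncRNA starts elsewhere these shares were 15.2% and 15.2%, 15.7% and 16.7%, 18.4% and 15.8%.

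RefSeq hairpin sequences were given for 19 of the 21 microRNA genes in deserts. A peak of any list lay within 500 bp of 4 of these 19, and of 171 of 900 hairpins elsewhere on the autosomes. *Mir6342* on chromosome 1 and *Mir344b* on chromosome 7 had one in both E16.5 lists, at P0 and at P3, and in neither E13.5 list. *Mir344c* had one in the E13.5 heterozygous list only, and *Mir7094-2* had one in the E16.5 knockout and P0 lists. The mature sequences of *Mir6342* and *Mir344b*, shown because both were near a peak in all lists but those of E13.5, with the seed (bases 2 to 8) in capitals, have different seeds.
miR-6342: cAGCAGCAaucuggucuuugag
miR-344b-3p: cAUUUAGCcaaagccugacugu
miR-344b-5p: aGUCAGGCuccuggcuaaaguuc

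The cell type was checked at gene ends, where a peak within 1000 bp is a weak sign since accessibility is not expression. Germ-cell genes *Ddx4*, *Dazl*, *Mael* and *Sycp3* had such a peak in all 6 lists and *Dppa4* at P0 only. None of 4 Leydig-cell genes and 3 blood and immune genes had one. The Sertoli-cell gene *Dhh* and the endothelial gene *Tek* had one in all 6 lists and *Wt1* in 5 of 6, while *Sox9*, *Amh*, *Pecam1* and *Cdh5* had none. Of 20063 start sequences of autosomal protein-coding genes, 51.1% to 53.0% overlapped a peak, depending on the list. Those sequences are narrower than the window used for the marker genes, for which no share over all genes is given. The part of other cell types in the desert peaks was not tested.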

How the data were processed

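The authors deposited 8 ATAC-seq peak lists, 1 per stage and genotype, with the start and end position of each peak and no score. Per the submitters' processing notes, bcl2fastq 2.20, cutadapt 1.18, Bowtie2 2.3.4.1, deepTools 3.5.0 and HOMER 4.10 were used and the build was mm10. Caller settings, thresholds and pooling of replicates are not given in the sources used here, and the depth of each list is unknown. Peaks are 501 bp wide with 8 exceptions over the 6 distinct lists.

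Here, distances were measured from peak midpoints to 21900 protein-coding genes of a GRCm38.p6 RefSeq table, less 108 that the table places below position 3000001, where no list has a peak. Peaks overlapped when they shared 1 bp. Shares carry Wilson intervals, ratios intervals on the log scale, and the private ratio a converted Wilson interval. No test was made. Python 3.11.15, numpy 2.4.6, pandas 2.3.3 and scipy 1.17.1 were used. Assignment and overlaps were tested on simulated data and against bedtools 2.31.1. Deserts are named by flanking genes. Named were the 8 fullest deserts, the 3 with the largest rise and drop from E13.5 to E16.5 in heterozygous cells, the 3 extremes of the genotype difference per stage and direction, the 10 sites of all 6 lists farthest from genes, and each list's farthest peak. Alternatives are in the closing section. Members and lists were chosen with earlier results of these data known. A genome sequence was not used here, so base composition of the peaks was not analysed.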

Additional observations from a re-analysis of the deposited data

Results flagged for a closer look

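Peaks in deserts of the X chromosome lie outside the autosomal rule and are given as a signal in data that no comparison above uses. The X chromosome had 22 deserts of 12.9 Mb in all. They held 0.916% of the 1092 X chromosome peaks of E13.5 heterozygous cells (0.773 peaks per Mb of desert) and 0.710% of 986 in E13.5 knockout cells (0.541). They held 8.39% of 1966 in E16.5 heterozygous cells (12.75 peaks per Mb), 9.04% of 2313 in E16.5 knockout cells (16.2), 12.9% of 3034 at P0 (30.1) and 6.82% of 1188 at P3 (6.26). The E16.5 shares have overlapping intervals (7.25 to 9.70 and 7.93 to 10.3).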

How the results depend on the processing

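No paired analysis was possible because the lists hold no replicate values, and so no replicate could be left out. A stricter peak threshold was not run, since the lists give no score. Of 126 recomputed values of 21 results, 71 stayed inside the interval of the reported value, 55 moved outside it and 0 called values reversed. At 1 Mb the E13.5 knockout to heterozygous ratio crossed 1, both intervals including 1 (1.09, 0.917 to 1.297, against 0.976). The order of the E13.5 private shares also turned there (knockout 45.6%, heterozygous 41.9%), with overlapping intervals. Requiring a gene on both sides changed nothing, since deserts at chromosome starts hold no peak. Leaving out the 3 deserts with immune receptor gene segments, added after seeing the data, left all 21 results inside. Without the fullest desert the shares became 10.75% and 9.81% at E16.5 (heterozygous, knockout) and 12.2% at P0. Shares move with the distance by construction. In the order E13.5 heterozygous, E13.5 knockout, E16.5 heterozygous, E16.5 knockout, P0 and P3 they were 4.88%, 4.79%, 18.1%, 16.9%, 20.4% and 14.0% at 250 kb. At 1 Mb they were 0.625%, 0.682%, 4.35%, 3.83%, 4.78% and 2.95%. With every gene of the table they were 0.033%, 0.021%, 0.176%, 0.142%, 0.203% and 0.106%, which rest on few peaks.

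The ratio of shares, E16.5 to E13.5, was 3.71 (heterozygous) and 3.52 (knockout) at 250 kb, 6.96 and 5.61 at 1 Mb, and 6.86 in knockout cells with every gene. P3 to P0 gave 0.686 at 250 kb, 0.616 at 1 Mb and 0.521 with every gene. Knockout to heterozygous gave 0.628 with every gene in E13.5 cells, and 0.879 at 1 Mb and 0.809 with every gene in E16.5 cells. With every gene the interval at E16.5 included 1 (0.598 to 1.09). Private shares at 250 kb were 37.4% in E13.5 knockout, 39.7% in E13.5 heterozygous and 24.6% in E16.5 knockout cells. At 1 Mb the E16.5 knockout share was 20.8%. A reciprocal overlap of 50%, stricter by construction, gave 25.4% (knockout) and 28.1% (heterozygous) at E16.5.

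Desert peaks kept at the next stage became, under that overlap, 46.1% (E13.5 knockout), 75.8% and 77.7% (E16.5 heterozygous and knockout) and 36.3% (P0). Counting peaks within 500 bp gave 82.3%, 83.6% and 40.6% for the last 3. At 250 kb they were 43.3% (E13.5 heterozygous), 79.0%, 79.8% and 40.8%. At 1 Mb they were 52.9% and 55.9% (E13.5 heterozygous and knockout), 82.97% (E16.5 knockout) and 37.95% (P0). The cause of the moves with distance was not tested.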

Other observations

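Deserts defined by protein-coding genes include immune receptor loci, whose variable segments the gene table lists under another type. The desert between *Adam6a* and *Zfp386* on chromosome 12 holds 115 immunoglobulin heavy chain segments and had 2 and 3 peaks in the E13.5 lists (heterozygous, knockout), 26 and 26 in the E16.5 lists, 66 in the P0 and 28 in the P3 list. It had more peaks at each later stage than at E13.5. The desert between *Gm36448* and *Dad1* on chromosome 14, with 72 T-cell receptor alpha segments over 0.694 Mb, had 0 and 0, 0 and 1, 2 and 1 in the same order.

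The desert share of peaks differed widely between autosomes. In E16.5 heterozygous cells it was 22.5% on chromosome 14 and 17.6% on chromosome 1, compared with 3.47% on chromosome 11 and 0.872% on chromosome 19. The E16.5 to E13.5 ratio of shares in heterozygous cells was above 1 on all 19 autosomes, from 1.57 on chromosome 11 to 7.74 on chromosome 15.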
